A study of Homo sapiens with 12 samples.

Results

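The clustered histone genes are the protein-coding genes of the 4 named histone gene clusters, HIST1 to HIST4, which encode the linker histone H1 and the core histones H2A, H2B, H3 and H4. Members were chosen by name, from rows annotated as protein-coding whose symbol begins with HIST1H to HIST4H or with the newer cluster form of the symbol. The rule uses no measured value, but it was set with earlier results of these data known. The rule found 64 members among 34227 genes listed for either cell line, and 61 of them were listed for both. They divide into 6 H1, 15 H2A, 17 H2B, 13 H3 and 13 H4 genes. HIST1 on chromosome 6 holds 49 members, HIST2 and HIST3 on chromosome 1 hold 11 and 3, and HIST4 on chromosome 12 holds 1.

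The series holds RNA-seq libraries of 2 human oral squamous carcinoma lines, SCC15 and SCC25, given as wild type (WT) in the labels, after 24 h with squamocin or with the vehicle DMSO. Squamocin, an annonaceous acetogenin that inhibits mitochondrial Complex I, was used at 10 µg/mL. The labels name that arm ACGs. Each treatment had 3 libraries per cell line, 12 in all. No source used here says whether these came from separate cultures, so p-values measure the spread between libraries, which may be technical.

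Most mRNA is cut and given a poly(A) tail. Replication-dependent histone mRNA is the exception: its 3′ end is a short stem-loop, formed by cleavage under the direction of the stem-loop binding protein SLBP and the U7 small nuclear ribonucleoprotein, and the same stem-loop marks it for rapid decay when DNA synthesis stops. These genes are therefore best known as genes of S phase, when new chromatin needs histones. Several of them, most of all H2A and H2B genes with a second exon or a downstream poly(A) signal, can also make polyadenylated mRNA outside S phase. Whether RNA was selected by its poly(A) tail before library construction is not given in the sources used here, and such selection keeps the tailed form alone.

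The stem-loop is printed because it is the element that all members share. The histone stem-loop pattern, in which the conserved letters of both arms and the loop are fixed and the rest may vary, was read on the strand of the gene and found within 100 bases after the stop codon in 64 of 64 members and in 8 of 19860 other coding genes (0.0403%), using the GRCh38 sequence and GENCODE release 44. They lay from 22 to 67 bases after the stop codon. There were 9 forms, of which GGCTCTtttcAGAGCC was in 37 members and in no H4 gene, while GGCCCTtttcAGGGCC was in 8 members, all of them H4. Capitals mark the 6 bases of each arm of the stem and lower case the loop of 4 bases. The forms of 5 members whose values are described further on, with their positions in the 3′ untranslated region on GRCh38, were as follows.
HIST1H2AE, chr6:26217417-26217432, plus strand: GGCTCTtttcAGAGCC
HIST1H2AG, chr6:27133515-27133530, plus strand: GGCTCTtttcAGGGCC
HIST1H2BJ, chr6:27132321-27132336, minus strand: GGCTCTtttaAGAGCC
HIST1H3E, chr6:26225596-26225611, plus strand: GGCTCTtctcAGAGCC
HIST4H4, chr12:14770724-14770739, minus strand: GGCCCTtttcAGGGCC
The gene models in the deposited tables treat this element unequally. For 31 members the model ended before the end of the stem-loop, for 8 within 100 bases after it, and for 25 it ran more than 100 bases past it. Spans ranged from 312 to 29685 bases.

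H2A and H2B genes often stand head to head and share the stretch between their starts as a promoter. The 250 bases before the start of the H2B gene are printed for 2 such pairs, because the partners moved apart in one pair and together in the other. The sequences are from RefSeq (GRCh38.p14), minus strand, and capitals mark the letters of 3 motifs searched on both strands. These are the TATA box with the letters TATAAA, the box whose letters CCAAT also give its name, and the octamer ATTTGCAT, known in H2B promoters as the site of POU2F1. Near the far end of the HIST1H2BJ sequence 2 matches of the TATA letters, 1 on each strand, overlap.
HIST1H2BJ, chr6:27132796-27133045, next to HIST1H2AG: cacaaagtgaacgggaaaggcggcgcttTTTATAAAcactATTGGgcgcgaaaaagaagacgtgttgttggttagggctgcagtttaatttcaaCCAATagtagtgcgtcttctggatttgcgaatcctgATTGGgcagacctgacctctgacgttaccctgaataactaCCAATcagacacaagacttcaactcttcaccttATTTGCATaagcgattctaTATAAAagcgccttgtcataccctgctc
HIST1H2BG, chr6:26216689-26216938, next to HIST1H2AE: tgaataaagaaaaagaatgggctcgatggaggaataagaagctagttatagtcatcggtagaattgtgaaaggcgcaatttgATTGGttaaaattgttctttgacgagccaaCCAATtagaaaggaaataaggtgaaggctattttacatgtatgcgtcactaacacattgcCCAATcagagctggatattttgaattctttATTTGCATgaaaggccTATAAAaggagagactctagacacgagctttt
A RefSeq promoter from 250 bases before to 50 bases after the start was matched for 59 members. TATAAA was in 67.8% of these promoters and in 11% of 27246 promoters of other genes, and CCAAT was in 84.7% and 32.9%. ATTTGCAT was in 39.0% of members' promoters against 1.58% of the others, with 71.4% of H2A and 76.5% of H2B promoters holding it and 0 of the H1, H3 and H4 promoters. A match describes the letters in this window and not a bound site.

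The recovered reads, which are the deposited normalized counts multiplied back by each library's size factor, ran from 16665563 to 22748845 per library. Squamocin replicate 3 of SCC15 stood apart from replicates 1 and 2, with a chi-square per degree of freedom of 67.9 and 60.1, while the other 10 pairs of replicates ranged from 1.73 to 10.7. Among 7 squamous epithelial markers, 5 reached the test in SCC15 and 7 in SCC25, whereas KRT5 and DSG3 in SCC15 did not reach a mean of 10 normalized counts. The 4 markers of leukocytes, endothelium and fibroblasts summed to between 7.07 and 11.3 CPM (counts scaled to a common library total) with squamocin and between 20.2 and 21.6 with DMSO in SCC15, and to between 42.3 and 50.2 and between 34.8 and 37.8 in SCC25. Their part in the results was not tested. Of them the leukocyte marker PTPRC had a mean of 1.91 normalized counts in SCC15 and was not listed for SCC25, while the endothelial marker PECAM1 was lower with squamocin in both and the fibroblast marker COL1A1 was higher in SCC25.

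In SCC25 cells clustered histone genes were found in both directions after squamocin. Of 20 H2A and H2B genes tested, 14 were higher and 3 lower, up to 47.2-fold higher for HIST1H2AE, and of 17 H1, H3 and H4 genes 5 were higher and 7 lower. Of 37 members tested, those with a mean of at least 10 normalized counts over the 6 libraries, 19 were higher, 10 were lower and 8 were neither at an adjusted p below 0.05 (limma). Over all 16539 genes tested, 38.3% were higher and 38.5% were lower. The members' median log2 fold change was 1.42, against -0.01 over all genes tested. All 3 squamocin libraries lay above all 3 DMSO libraries for 19 members and below them for 10, and the groups overlapped for 8. That split was not counted over all genes tested, of which 76.8% passed the test in either direction.

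In SCC15 cells, of 31 members tested, 11 were higher, 8 were lower and 12 were neither, where 30.9% and 30.0% of all 15902 genes tested were higher and lower. Their median log2 fold change was 0.33, against 0.01 over all genes tested. The groups did not overlap for 21 members, 13 with all squamocin libraries higher and 8 with all lower. That split was not counted over all genes tested in SCC15 either, of which 30.9% passed the test as higher and 30.0% as lower. Without squamocin replicate 3, the library that stood apart, 10 members were higher and 9 lower, and the median was 0.17. Without DMSO replicate 2 the counts were 7 and 5, and without DMSO replicate 3 there were 5 lower.

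These directions rest on the size factors, since the squamocin libraries carried larger normalized totals. Scaled to equal library totals, the median over all genes moved to -0.48 in SCC15 and to -0.22 in SCC25. On that scale SCC15 had 6 members higher and 11 lower, and SCC25 had 19 higher and 11 lower. Relative to the median of all genes, the members' median was 0.32 in SCC15 and 1.43 in SCC25 on either scale. The members not tested, 31 in SCC15 and 26 in SCC25, had means up to 9.27 and 9.97. Many were far below the limit of 10, with reads over the 6 libraries from 2 to 63 in SCC15 and from 2 to 65 in SCC25. The lowest tested means were 12.2 and 10.1. Of the tested members, 24 in SCC15 and 31 in SCC25 had a mean of at least 10 in both treatments. The others, 7 and 6 members, passed through the treatment in which they were high. Their means in the treatments lay on either side of 10 by that rule, and some of them, such as HIST2H3D in SCC15 and HIST1H2BE in SCC25, had no call. Without all of the members that passed in this way, 8 members were higher and 6 lower in SCC15, and 17 and 8 in SCC25. This was an alternative chosen after seeing the data.

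**Figure D1:**
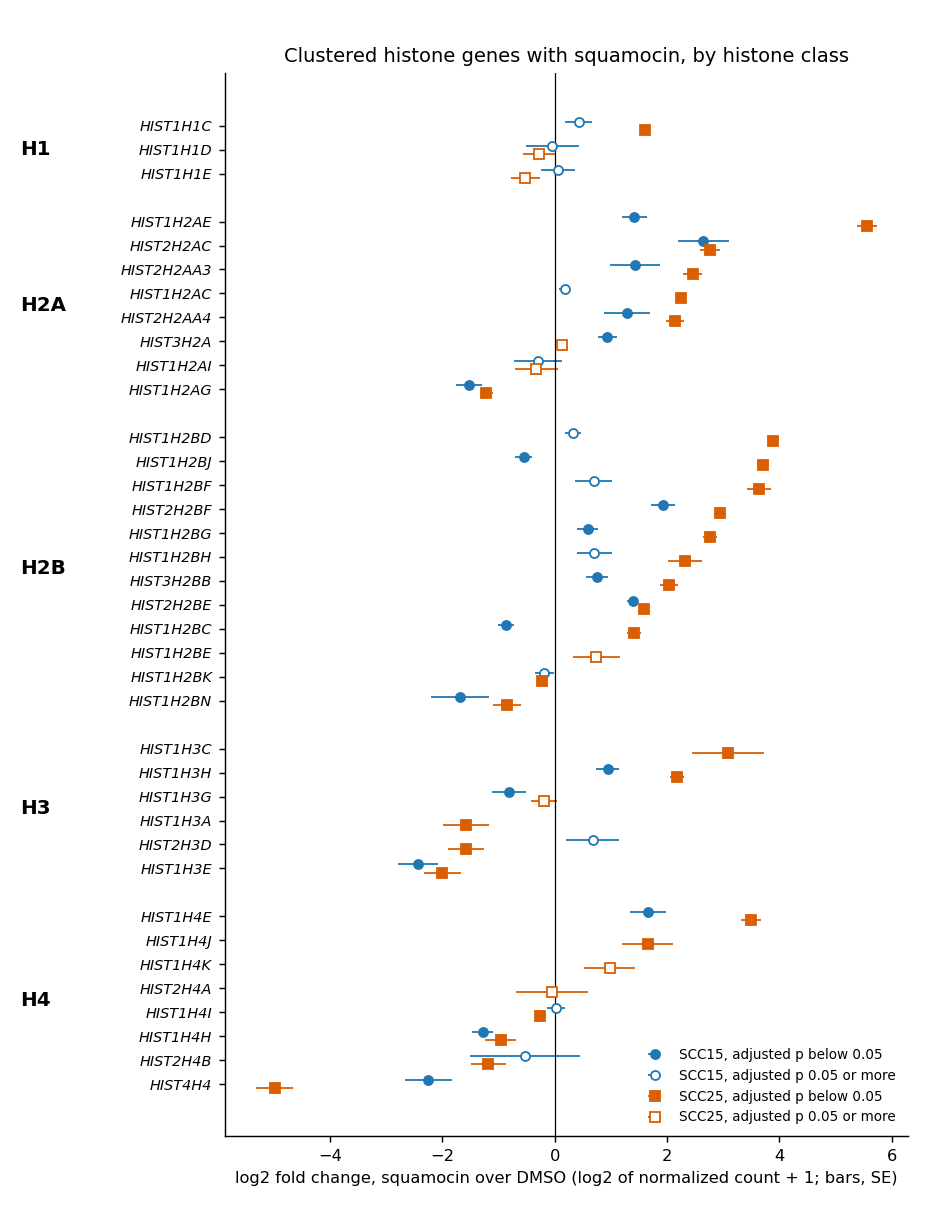
Log2 fold change of each tested clustered histone gene (x axis, squamocin over DMSO on log2 of the normalized count plus 1, bars SE) in SCC15 (circles) and SCC25 (squares), grouped by histone class, with filled symbols for an adjusted p below 0.05. In SCC25 the H2A and H2B genes reach from -1.22 to 5.56 and HIST4H4 lies at -4.99, while SCC15 values stay between -2.43 and 2.64; the value of HIST1H3C rests on a DMSO group of at most 3 reads per library.

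The linker histones bind the DNA between nucleosomes. Values by library are normalized counts in the order of replicates 1, 2 and 3, and levels are not compared between genes or cell lines. HIST1H1C, the H1 gene with the highest mean, was 1923, 1923 and 1842 with squamocin in SCC25 and 662, 568 and 629 with DMSO. The squamocin libraries all lay well above the DMSO libraries, and the log2 fold change was 1.61 ± 0.06 (SE, adjusted p = 1.69e-10). In SCC15 HIST1H1C was 701, 670.2 and 1280.3 with squamocin and 572, 681 and 634 with DMSO. Replicate 3 alone was far above the DMSO range, the groups overlapped, and the log2 fold change of 0.43 ± 0.24 (SE, adjusted p = 0.155) did not pass and turned to -0.07 at equal library totals. HIST1H1D and HIST1H1E passed in neither cell line, with values from -0.52 to 0.07. HIST1H1E in SCC25 was lower at equal library totals (-0.72, adjusted p = 0.0238) and without squamocin replicate 3 (-0.68, adjusted p = 0.0310).

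H2A pairs with H2B in the nucleosome core. Of 8 H2A genes tested in SCC25, 5 were higher and 1 was lower, with a median log2 fold change of 2.20. Among all genes tested there, 38.3% were higher and 38.5% lower. HIST1H2AE was 713, 725 and 733 with squamocin and 12.9, 11.7 and 19.5 with DMSO. No other member differed by as much in SCC25, where its log2 fold change was 5.56 ± 0.17 (SE, adjusted p = 2.77e-11), the 47.2-fold named above. In SCC15 it was 82.3, 75.2 and 97.1 against 23.9, 34.8 and 35.8, a log2 fold change of 1.42 ± 0.22 (SE, adjusted p = 0.00121).

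HIST1H2AC, the H2A gene with the highest mean, was 1952, 1858 and 1944 with squamocin and 425, 391 and 386 with DMSO in SCC25, a log2 fold change of 2.26 ± 0.06 (SE, adjusted p = 5.03e-12). In SCC15 it was 461, 474 and 482 against 431, 381 and 441. The groups did not overlap there, but the log2 fold change of 0.18 ± 0.10 (SE) did not pass (adjusted p = 0.138), and at equal library totals it was -0.32 with an adjusted p of 0.0359. HIST2H2AC was 145, 140.4 and 159.9 with squamocin and 23.4, 18.0 and 22.1 with DMSO in SCC25, a log2 fold change of 2.76 ± 0.18 (SE, adjusted p = 2.01e-08). In SCC15 HIST2H2AC was 70.7, 90.1 and 148 against 20.47, 7.12 and 21.8, the largest log2 fold change among members there (2.64 ± 0.45 SE, adjusted p = 0.00194).

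The near-identical HIST2H2AA3 and HIST2H2AA4, a duplicated gene between which reads could be split, were higher in both cell lines, with log2 fold changes of 2.46 and 2.14 in SCC25 and of 1.43 and 1.28 in SCC15. In SCC15 both passed the filter through the squamocin libraries. There both lost the call at equal library totals and without any 1 of the DMSO libraries, HIST2H2AA3 also without squamocin replicate 3 and HIST2H2AA4 without squamocin replicate 1, with adjusted p from 0.0548 to 0.1001 over these fits. HIST3H2A was higher in SCC15 (0.94) and not in SCC25 (0.12, and -0.08 at equal library totals). HIST1H2AG was the H2A gene called lower in both cell lines. It was 74.99, 76.95 and 75.49 with squamocin and 177, 169 and 187 with DMSO in SCC25, a log2 fold change of -1.22 ± 0.12 (SE, adjusted p = 1.10e-06), and it fell by 1.53 in SCC15.

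Of 12 H2B genes tested in SCC25, 9 were higher and 2 were lower, with a median of 2.18, beside the same 38.3% and 38.5% of all genes. HIST1H2BD, whose model overlaps other rows, was 2393, 2429 and 2313 with squamocin and 164, 171 and 143 with DMSO in SCC25. The groups were far apart, with a log2 fold change of 3.89 ± 0.07 (SE, adjusted p = 3.61e-13). In SCC15 HIST1H2BD was 285, 248 and 333 against 211, 218 and 256. The groups overlapped, and the log2 fold change of 0.33 ± 0.14 (SE, adjusted p = 0.076) was -0.16 at equal library totals. It passed without squamocin replicate 2 (0.44, adjusted p = 0.0410).

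HIST1H2BJ was 848, 886 and 836 with squamocin and 73.3, 61.2 and 60.2 with DMSO in SCC25, a log2 fold change of 3.71 ± 0.10 (SE, adjusted p = 8.03e-12). In SCC15 it was 95.1, 88.9 and 114 against 128, 164 and 147. All squamocin libraries were lower there, and it fell by 0.55 on the log2 scale (SE 0.16, adjusted p = 0.0184). This did not pass when squamocin replicate 2 was left out (adjusted p = 0.0552), nor when it was DMSO replicate 2 (0.0805) or DMSO replicate 3 (0.0636). HIST1H2BF was 203, 204 and 147 with squamocin and 11.3, 15.29 and 15.05 with DMSO in SCC25, a log2 fold change of 3.64 ± 0.21 (SE, adjusted p = 6.25e-09), while in SCC15 it was 26.7, 23.9 and 32.4 against 13.6, 12.7 and 26.2. Those groups overlapped, and it passed there only without DMSO replicate 3 (1.01, adjusted p = 0.0360) among the libraries left out.

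HIST2H2BE, the H2B gene with the highest mean, was higher in both cell lines. It was 3028, 2859 and 2827 against 968, 979.6 and 951 in SCC25 and 1020.1, 919.9 and 942 against 379.6, 385 and 332 in SCC15. Neither pair of groups overlapped, and the log2 fold changes were 1.59 ± 0.05 and 1.39 ± 0.10 (SE, adjusted p = 1.79e-11 and 4.53e-05). HIST2H2BF, whose model spans 29685 bases and overlaps other rows, was 240.0, 178 and 149 against 40.9, 57.7 and 46.3 in SCC15, a log2 fold change of 1.93 ± 0.22 (SE, adjusted p = 0.0003), and its log2 fold change in SCC25 was 2.94.

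Some H2B genes fell or stayed near 0. HIST1H2BN was 12.8, 9.12 and 2.49 with squamocin and 26.4, 22.9 and 23.6 with DMSO in SCC15, where it fell by 1.68 on the log2 scale (SE 0.52, adjusted p = 0.0244), and it fell by 0.84 in SCC25. In SCC15 it passed the filter through the DMSO libraries, and the call was lost without any 1 of them (adjusted p from 0.0658 to 0.0787). HIST1H2BC fell by 0.86 in SCC15 and rose by 1.42 in SCC25. HIST1H2BK, one of the members with the most reads, had log2 fold changes of -0.18 in SCC15 and -0.22 in SCC25, of which the second passed the test (adjusted p = 0.00911). The first also passed at equal library totals (-0.68, adjusted p = 0.00267) and without squamocin replicate 3 (-0.36, adjusted p = 0.00175).

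H3 and H4 form the central tetramer of the nucleosome. In SCC25, 3 of 6 H3 genes tested were lower and 2 higher, and 4 of 8 H4 genes were lower and 2 higher. In SCC15, 2 of 4 H3 genes and 2 of 5 H4 genes were lower, with 1 of each higher. Of all genes tested, 38.5% were lower and 38.3% higher in SCC25, and 30.0% and 30.9% in SCC15. In SCC25 HIST1H3A, called lower, passed the filter through the DMSO libraries. HIST1H4J, called higher there, passed it through the squamocin libraries. HIST1H3E was 5.80, 9.12 and 4.98 with squamocin and 41.8, 26.9 and 53.3 with DMSO in SCC15. It fell by 2.43 on the log2 scale there (SE 0.36, adjusted p = 0.00105) and by 2.00 in SCC25, where it was 22.9, 40.6 and 13.3 against 105, 75.6 and 111. In SCC15 it passed the filter through the DMSO libraries. The other H3 gene lower in SCC15 was HIST1H3G (-0.81, adjusted p = 0.0475). Its call was lost without squamocin replicate 1 or 2 or DMSO replicate 2 or 3 (adjusted p from 0.0837 to 0.174).

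HIST1H3H, the H3 gene with the highest mean, rose instead. It was 313, 292 and 271 against 70.1, 63.9 and 57.5 in SCC25, a log2 fold change of 2.18 ± 0.12 (SE, adjusted p = 5.56e-09). In SCC15 it was 74.2, 84.4 and 106 against 45.2, 38.7 and 51.5, a log2 fold change of 0.94 ± 0.20 (SE, adjusted p = 0.00493) that did not pass at equal library totals. HIST1H3C in SCC25 passed the filter through the squamocin libraries alone, at 8.90, 17.7 and 31.1 normalized counts against 1.61, 2.70 and 0. Its DMSO libraries held at most 3 reads each, so no fold is given for it.

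HIST4H4, the single gene of its cluster, was lower in both cell lines, and in SCC25 it passed the filter through the DMSO libraries. There it was 8.90, 12.5 and 3.33 with squamocin and 277, 265 and 247 with DMSO. The means differed by 32.0-fold, and the log2 fold change was -4.99 ± 0.34 (SE, adjusted p = 2.79e-08). In SCC15 it was 30.1, 11.4 and 9.95 against 76.8, 95.7 and 59.4, and fell by 2.25 (SE 0.42, adjusted p = 0.00278).

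HIST1H4I, the H4 gene with the highest mean, moved little. It was 173, 174 and 162 against 205, 202 and 199 in SCC25, where it fell by 0.25 on the log2 scale (SE 0.10, adjusted p = 0.0307), a call lost by DESeq2 (adjusted p = 0.0850), with the replicate number as a block (0.0543), and without squamocin replicate 3 or any 1 of the DMSO libraries (0.0645 to 0.0883). In SCC15 it was 165, 164 and 229 against 186, 171 and 185. The groups overlapped, and the log2 fold change of 0.02 turned to -0.47 at equal library totals (adjusted p = 0.00995). HIST1H4E was the H4 gene with the largest rise, by 3.49 in SCC25 and 1.66 in SCC15 on the log2 scale, where in SCC15 it passed the filter through the squamocin libraries. HIST1H4H fell by 0.96 and 1.28.

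**Figure D2:**
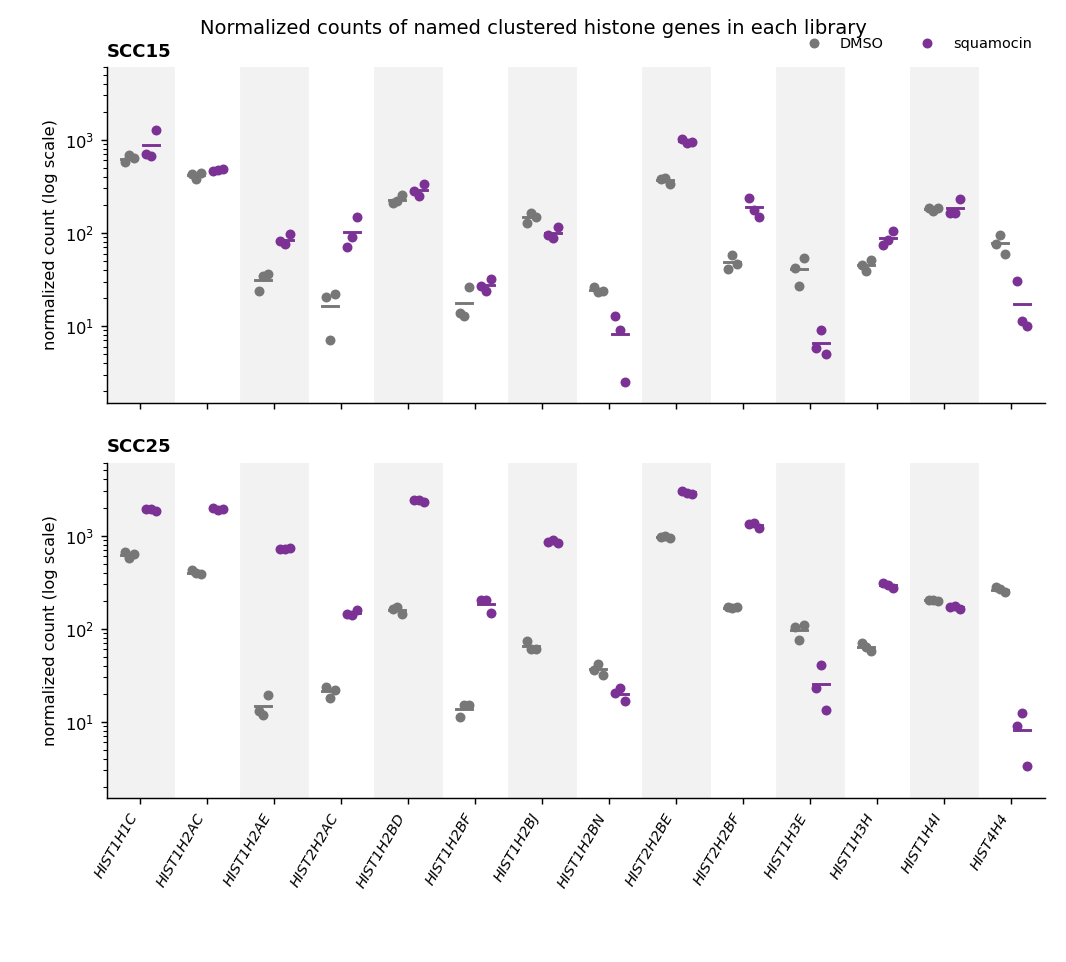
Normalized counts (y axis, log scale) of 14 clustered histone genes in each library of SCC15 (top) and SCC25 (bottom), with DMSO in grey, squamocin in purple and a line at each mean of 3 libraries. In SCC25 HIST1H2AE goes from between 11.7 and 19.5 to between 713 and 733 and HIST4H4 from between 247 and 277 to between 3.33 and 12.5.

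Head-to-head H2A-H2B pairs, whose starts lie within 500 bases of each other on opposite strands, show how far partners moved together. There were 10 such pairs, with 219 to 331 bases between the starts, and both partners were tested in 5 of them. HIST1H2BG and HIST1H2AE both rose, with log2 fold changes of 2.76 and 5.56 in SCC25 and of 0.59 and 1.42 in SCC15. HIST2H2BE and HIST2H2AC were also both higher in both cell lines. HIST1H2BJ and HIST1H2AG parted in SCC25, where the first rose by 3.71 and the second fell by 1.22, although 292 bases separate their starts. In SCC15 both fell, by 0.55 and 1.53. The printed promoter between them holds the octamer 1 time, as does that between HIST1H2BG and HIST1H2AE.

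HIST1H2BC and HIST1H2AC were both higher in SCC25 (1.42 and 2.26), while in SCC15 HIST1H2BC fell by 0.86 and HIST1H2AC had a log2 fold change of 0.18 that did not pass. HIST3H2A and HIST3H2BB were both higher in SCC15 (0.94 and 0.75, the second without a call at equal library totals or without DMSO replicate 2, adjusted p = 0.290 and 0.0504). In SCC25 HIST3H2BB rose by 2.04 and HIST3H2A had 0.12. The tested pairs hold no case in which the H2A and the H2B gene fell together in SCC25.

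**Figure D3:**
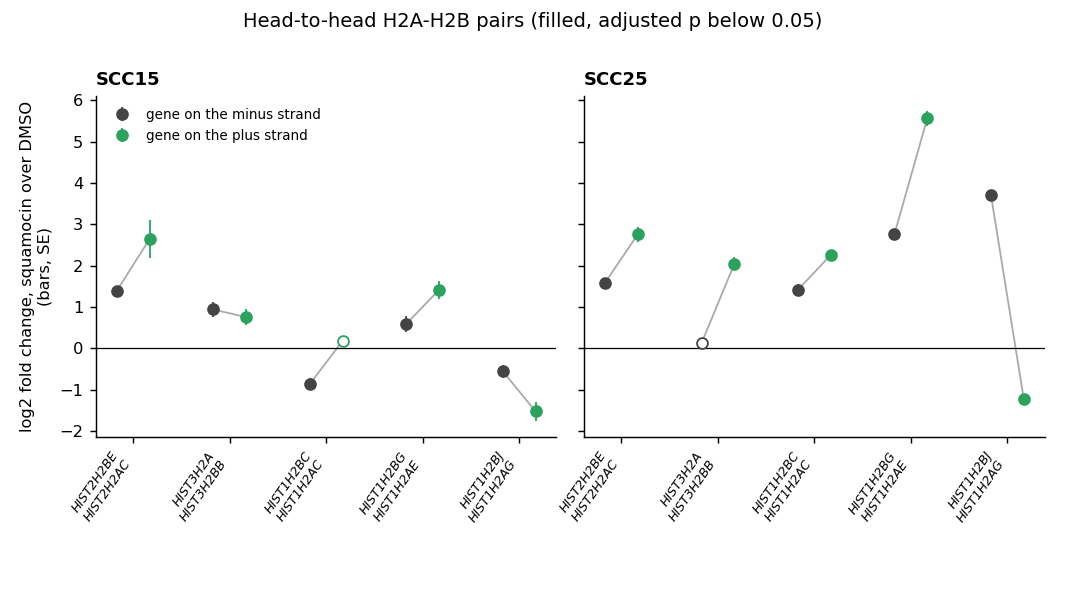
Log2 fold change (y axis, squamocin over DMSO, bars SE) of the partners in the 5 head-to-head pairs tested, joined by a line, with the gene on the minus strand in dark grey, that on the plus strand in green and filled symbols for an adjusted p below 0.05. In SCC25 the line of HIST1H2BJ and HIST1H2AG crosses 0, from 3.71 to -1.22.

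Summing reads over all listed members gives a level that does not depend on the size factors. In SCC25 the members took 751, 739.6 and 732 CPM with squamocin and 276, 266 and 264 with DMSO, or 741 ± 9.39 against 269 ± 6.60 (SD, n = 3 each). This was 2.76-fold, with an exact two-sided permutation p of 0.1, the smallest that 3 libraries against 3 allow. H2B genes had 3.52-fold, H2A genes 2.92-fold and H1 genes 2.42-fold the DMSO level, each with every squamocin library above every DMSO library. H4 genes had 0.677 of the DMSO level, with every library lower, and H3 genes 1.21.

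In SCC15 the summed level was 221, 209 and 233 with squamocin and 228, 235 and 237 with DMSO, a ratio of 0.947 (exact permutation p = 0.2). Summed normalized counts gave a ratio of 1.35, so the direction of this sum is set by the scaling. H2B and H2A genes were at 1.01 and 1.05 of DMSO in CPM, H3 genes at 0.635 and H4 genes at 0.581, the last 2 with every squamocin library lower. In summed normalized counts H2B and H2A genes were at 1.42 and 1.49, H3 genes at 0.908 and H4 genes at 0.827. The exact permutation p on that scale was 0.5 for H3 and 0.3 for H4, so the class ratios also depend on the scaling. A few genes carried most of these sums. The 8 members with the most reads took between 73.4% and 79.8% of all member reads, led by HIST2H2BE in SCC25 under both treatments, while in SCC15 HIST1H1C led with DMSO and HIST2H2BE with squamocin.

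**Figure D4:**
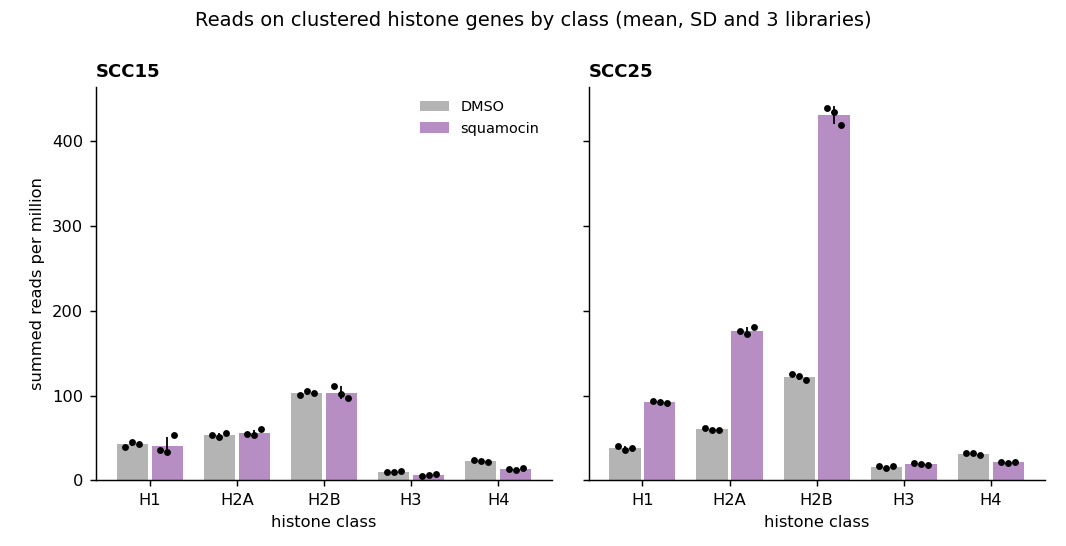
CPM (y axis, counts scaled to a common library total) summed over the listed clustered histone genes of each class in SCC15 and SCC25, with bars for the mean, lines for the SD and points for the 3 libraries. In SCC25 the H2B bar goes from 122 to 431 and the H4 bar from 31.7 to 21.4; in SCC15 the H2B bars stand at 103 and 104.

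The response itself was compared between the cell lines for the 31 members tested in both. It was more positive in SCC25 for 13 members, more negative for 3 and not different for 15 at an adjusted p below 0.05 (limma contrast), where 26.0% of 14454 genes were more positive and 26.1% more negative, or 52.2% in either direction. H2B genes made up 8 of the 13. The largest differences were for HIST1H2BJ (4.26 ± 0.19 SE, adjusted p = 9.75e-09), HIST1H2AE (4.15 ± 0.29 SE, adjusted p = 2.78e-07) and HIST1H2BD (3.56 ± 0.17 SE, adjusted p = 1.32e-08). HIST4H4 was the most negative, at -2.74 ± 0.61 (SE, adjusted p = 0.00216), but in SCC25 it passed the filter through the DMSO libraries. In SCC15 HIST2H3D, also more negative, and HIST1H4E, more positive, passed it through the squamocin libraries. With at least 10 normalized counts in every library, 1 member was more negative.

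Taking the calls of each cell line, 10 of the 31 members rose in SCC15 and SCC25 alike and 5 fell in each, where 22.1% and 18.6% of all genes did. HIST1H2BC and HIST1H2BJ were lower in SCC15 and higher in SCC25, as were 4.66% of all genes, and no member was higher in SCC15 and lower in SCC25 (5.44% of all genes). The members lower in both were HIST4H4, HIST1H3E, HIST1H4H, HIST1H2AG and HIST1H2BN. Of these, HIST4H4 in SCC25 and HIST1H3E and HIST1H2BN in SCC15 passed the filter through the DMSO libraries. Among those higher in both, HIST2H2AA3, HIST2H2AA4 and HIST1H4E passed it in SCC15 through the squamocin libraries. With at least 10 normalized counts in every library, 6 members were higher in both and 2 lower. At equal library totals 5 members were higher in both, and without DMSO replicate 2 of SCC15 there were 6.

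Members were also split by promoter letters, cluster and gene model. In SCC25, 13 tested members with ATTTGCAT in the promoter had 10 higher and 2 lower and a median of 2.33, while 24 without it had 9 and 8 and a median of -0.12. All of the first are H2A or H2B genes. Of the same classes and without the letters, HIST2H2AA3, HIST2H2AA4, HIST3H2BB and HIST1H2BD were higher too. HIST1H2BN, also without them, was lower, and HIST3H2A and HIST1H2AI were not called. Over all genes tested in SCC25, 38.3% were higher and 38.5% lower. In SCC15 the HIST2 genes were higher for 5 of 7 tested with none lower, and the HIST1 genes were higher for 4 and lower for 7 of 21. The higher HIST2 genes there include HIST2H2AA3 and HIST2H2AA4, which passed the filter through the squamocin libraries. In SCC25 HIST2 had 5 higher and 2 lower of 8 and HIST1 13 and 7 of 26. Several HIST2 genes share sequence with a near copy, and 7 tested members in SCC15 that share over 10% of their 75-base words with another histone row had 4 higher and none lower. Members whose model ends before the stem-loop had 1 higher and 0 lower of 6 in SCC15 and 3 and 3 of 9 in SCC25.

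The 8 members that general knowledge gives as making polyadenylated mRNA outside S phase are given next. In SCC25, 7 were higher and 1, HIST1H2BK, was lower, with a median of 1.94. In SCC15, 2 were higher (HIST2H2BE and HIST1H2BG, the second without a call at equal library totals, with the replicate block or without squamocin replicate 1 or any 1 of the DMSO libraries, with adjusted p from 0.0529 to 0.655) and 2 lower (HIST1H2BC and HIST1H2BJ), with a median of 0.26 that was -0.24 at equal library totals. The response was more positive in SCC25 for 6 of the 8.

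Genes of DNA replication stand beside these values, followed by other lists. Over all genes tested, 38.3% were higher and 38.5% lower in SCC25, and 30.9% and 30.0% in SCC15. At equal library totals the median over all genes was -0.22 in SCC25 and -0.48 in SCC15, which enters the counts of each list on that scale. Of 18 S phase genes, 14 were lower and 2 higher in SCC25, with a median of -1.04, and 7 were lower and 2 higher in SCC15, with a median of -0.25. Without squamocin replicate 3 of SCC15, 12 were lower, and at equal library totals 16. Relative to the median of all genes, the S phase median in SCC15 was -0.26 in the main fit and -0.27 at equal library totals. The replicative helicase subunits MCM2 and MCM3 had log2 fold changes of -3.56 and -2.68 in SCC25 and of -0.93 and -0.70 in SCC15, all past the test. Cyclin A2 (CCNA2), of S phase and G2, rose by 1.11 in SCC25. In bulk RNA, a change in the share of cells in S phase and a change in RNA per cell cannot be told apart, and the part of either in the histone values was not tested.

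Factors that make the stem-loop end were mixed. Of 14 such genes, 5 were higher and 8 lower in SCC25 and 3 higher and 5 lower in SCC15, with 3 and 9 and 1 and 11 at equal library totals. NPAT, the coactivator of histone gene transcription, fell by 0.45 in SCC25 and by 1.12 in SCC15, and CASP8AP2 (FLASH), a factor of histone 3′ end cleavage, fell by 0.79 and 1.06. The U7 protein LSM10 rose by 1.31 and 0.90. SLBP had a log2 fold change of 0.00 in SCC25 (adjusted p = 0.946) and 0.53 in SCC15 (adjusted p = 0.019), a difference of -0.53 ± 0.17 (SE, adjusted p = 0.021). Of 8 genes of histone mRNA decay, 2 were higher and 3 lower in each cell line, or 4 and 4 in SCC15 without squamocin replicate 3. At equal library totals SCC25 had 2 and 5, and SCC15 had 0 and 4. The exonuclease ERI1, which trims the stem-loop, rose by 1.06 in SCC25 and fell by 0.31 in SCC15.

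Histone chaperones, which carry histones to DNA, were lower for 11 of 15 genes and higher for 4 in SCC25, and lower for 6 and higher for 3 in SCC15, where 9 were lower without squamocin replicate 3 and 11 at equal library totals. CHAF1A, the large subunit of the replication-coupled assembly factor CAF-1, fell by 1.85 and 0.91. DAXX, a chaperone of the replacement histone H3.3, rose by 0.51 and 0.99. Replacement histones, which are made throughout the cell cycle from polyadenylated mRNA outside the clusters, were higher for 8 and lower for 2 of 10 tested in SCC25 and higher for 5 and lower for 2 of 11 in SCC15, where equal library totals turned the split to 1 and 4. H3F3B, one of the H3.3 genes, rose by 1.64 and 1.74 on the log2 scale, and the linker histone gene H1F0 rose by 1.14 and 0.62. H2AFX, whose product marks DNA breaks when phosphorylated, fell by 0.39 and 0.68.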

How the data were processed

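The authors aligned reads to GRCh38 with HISAT2 2.0.5 and counted them per gene with featureCounts 1.5.0-p3, per the submitters' processing notes. The annotation release, the strand setting and the handling of multi-mapped reads are not given in the sources used here. The deposited signal in each table is the normalized count: each library's reads over its own size factor, set within 1 cell line at a time, although headers of the SCC25 table call it FPKM. All values came out as whole reads (tolerance 0.01) once the size factors were recovered. The deposited tables also hold the authors' group means and their own log2 fold changes and p-values, none of which were used. Gene names turned into dates numbered 24 in SCC15 and 21 in SCC25, and none is a member.

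Genes with a mean of at least 10 normalized counts over the 6 libraries of a cell line were tested with limma 3.58.1 (R 4.3.3, trend) on log2(normalized count + 1), two-sided, with Benjamini-Hochberg adjustment over all genes tested. The pseudocount understates fold changes of low genes. The difference between cell lines was a contrast of the 4 group means over genes tested in both. The fits were tested on simulated data. Alternatives, whose effects are given in the closing section, were a replicate block, each library left out, other pseudocounts and filters, scaling by TMM or to equal totals, and count tests of the recovered reads by edgeR 4.0.16 or by DESeq2 1.42.0. Replicate numbers did not pair libraries (correlations of deviations between same-numbered libraries from -0.051 to 0.0078).

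Values by library are given for the 5 members with the largest change past the threshold in each cell line and for the member with the highest mean in each class. HIST1H2AG and HIST1H3C were added after their values were seen. The members and lists were chosen with earlier results of these data known. Of the members, 60 matched GENCODE 44 by identifier and 4 by an older symbol. Members sharing over 10% of their 75-base words with another histone row number 13, and 13 members overlap another row, so reads could be split between rows.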

Additional observations from a re-analysis of the deposited data

Results flagged for a closer look

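For 16 of the 31 members tested in both, the response to squamocin differed between the cell lines by the limma contrast itself (log2 fold change in SCC25 minus that in SCC15, adjusted p below 0.05). Of all 14454 genes tested in both, 52.2% differed, so the count of members was near that share. Among H2B genes the difference was 4.26 for HIST1H2BJ, 3.56 for HIST1H2BD, 2.94 for HIST1H2BF, 2.28 for HIST1H2BC, 2.17 for HIST1H2BG, 1.62 for HIST1H2BH, 1.29 for HIST3H2BB and 1.01 for HIST2H2BF. Among H2A genes it was 4.15 for HIST1H2AE and 2.08 for HIST1H2AC, and -0.81 for HIST3H2A. For the linker histone gene HIST1H1C it was 1.19, for the H3 genes HIST1H3H and HIST2H3D it was 1.23 and -2.26, and for the H4 genes HIST1H4E and HIST4H4 it was 1.83 and -2.74. HIST2H3D shares sequence with near copies, and HIST2H2BF and HIST1H2BD overlap other rows. HIST4H4 in SCC25 passed the filter through the DMSO libraries, and HIST2H3D and HIST1H4E in SCC15 through the squamocin libraries.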

How the results depend on the processing

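Over all alternatives, 927 values of single members kept direction and side of the threshold, 36 lost the call, 9 gained it and 27 changed sign. A floor of 10 normalized counts in each library gave 7 members higher and 5 lower in SCC15, 6 higher and 2 lower in both cell lines, 1 more negative in SCC25 and a SCC25 median of 1.61, with fewer members tested. Equal library totals gave 6 higher in SCC15, 5 higher in both, and medians of -0.16 and 1.21. Without members that share sequence, a choice made after seeing the data, 7 were higher in SCC15. All genes above 0 gave medians of 0.076 and 0.76, and a pseudocount of 10 gave 0.84 in SCC25. Summed normalized counts gave 1.35-fold in SCC15, where CPM gave 0.947, and 3.18-fold in SCC25. The causes of these shifts, other than the number of members tested, were not tested.

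Leaving out 1 library gave 7 to 12 higher, 5 to 9 lower and a median of 0.17 to 0.44 in SCC15, 19 to 20, 9 to 10 and 1.28 to 1.47 in SCC25, 6 to 11 higher and 4 to 6 lower in both, and 13 to 16 more positive. It moved HIST2H4A in SCC25 between -0.93 and 0.52 and, in SCC15, HIST2H4B between -1.45 and 0.38, HIST1H1E between -0.060 and 0.31, HIST1H1D between -0.46 and 0.23, HIST1H4I between -0.13 and 0.10 and HIST1H2AI between -0.67 and 0.033.

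HIST2H4A in SCC25 was 0.080 with a pseudocount of 10 and 0.51 by edgeR and by DESeq2. Equal library totals gave -0.083 for HIST3H2A in SCC25 and, in SCC15, -0.069 for HIST1H1C, -0.32 for HIST1H2AC, -0.40 for HIST1H1E, -0.16 for HIST1H2BD and -0.47 for HIST1H4I. By edgeR HIST1H1E and HIST1H4I in SCC15 were -0.0398 and -0.0343, and TMM gave -0.018 for HIST1H4I.

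With the replicate number as a block, which shares only a number, SCC15 had 10 higher and 8 lower and SCC25 20 higher and 9 lower. Reads of a few per library limit the low members.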
